A study of Mus musculus with 12 samples.

Results

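The transcripts described here encode the proteasome, the protease that degrades ubiquitin-tagged proteins in the cytosol and nucleus, as measured in mouse spleen on 3 diets. Members were all genes whose platform symbol begins with Psma, Psmb, Psmc, Psmd or Psme followed by a number, except the immunoproteasome genes Psmb8, Psmb9 and Psmb10. This gave 42 of the 19057 genes on the arrays, each represented by its probe with the highest mean over the 12 mice. By role they were 14 core subunits, 17 cap subunits, 3 cap assembly chaperones, 4 activators, the core subunits Psma8 of testis and Psmb11 of thymus, and Psmc3ip and Psme3ip1, which share the prefix but are no subunits.

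RNA came from whole spleens of 12 male C57Bl/6J mice, 4 per diet, with 1 array per mouse, and the study asked how the fat composition of a high-fat diet shapes splenic gene expression. All mice arrived at 6 weeks of age, acclimatized for 3 weeks and ate their diet for 8 weeks. Per 100 g, the control diet provided 5 g fat, made up of 2.5 g corn oil and 2.5 g coconut oil, without added cholesterol. The high-fat diet with corn oil (HFD-CO) held 15 g fat, as 5 g corn oil and 10 g coconut oil, and 1 g cholesterol. The high-fat diet with EPA and DHA (HFD-ED) held the same 15 g fat and 1 g cholesterol, but 3 g corn oil, 10 g coconut oil and 2 g of an oil rich in these long-chain n-3 fatty acids. The 12 mice had been picked out of larger groups on the basis of body weight and of triglyceride and cholesterol in plasma. The tissue label reads spleen although an extraction text in the labels reads skeletal muscle.

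The proteasome has a barrel-shaped core of alpha and beta subunits, with proteolytic sites on some beta subunits, and a cap that binds ubiquitin chains, unfolds the substrate and feeds it into the core. The cap is made of a base, which holds a ring of ATPases, and a lid. In lymphoid tissue the immunoproteasome subunits often replace their constitutive counterparts in the core, and interferon-inducible activators can take the place of the cap.

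Many proteasome genes are known targets of the transcription factors Nfe2l1 and Nfe2l2, which bind antioxidant response elements, and promoters of this kind often carry ETS factor sites. RefSeq promoter windows (GRCm38.p6, 250 bases before to 50 after a transcript start) were at hand for 35 of the 42 members. The element's core, TGACNNNGC on either strand, was found in 6 of these 35 genes (17.1%), against 16.9% of genes with a mean level of at least 7.5 and 14.0% of all genes with a window. The ETS letters CCGGAAG, on either strand, were found in 14 of 35 (40.0%), against 22.0% of the genes with a mean of at least 7.5 and 9.93% of all. The 6 windows with the antioxidant element core are shown first, with the motif in capitals and each sequence 5′ to 3′ on the strand of its gene. Then follow ETS windows of 3 members whose levels are described below, the lid subunits Psmd11 and Psmd13 and the activator Psme3.
Psmb5 (chr14:54618013-54618062, minus strand): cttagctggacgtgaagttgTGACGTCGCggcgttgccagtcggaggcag
Psmb6 (chr11:70525327-70525356, plus strand): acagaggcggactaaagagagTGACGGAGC
Psmc6 (chr14:45329577-45329626, plus strand): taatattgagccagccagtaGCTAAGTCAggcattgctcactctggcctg
Psmd12 (chr11:107479278-107479327, plus strand): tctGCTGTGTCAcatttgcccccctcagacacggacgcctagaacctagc
Psmd9 (chr5:123228139-123228188, plus strand): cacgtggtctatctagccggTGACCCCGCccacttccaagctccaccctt
Psme4 (chr11:30771758-30771787, plus strand): cgctgcggctGCAGCGTCAccagaagagcc
Psmd11 (chr11:80428565-80428614, plus strand): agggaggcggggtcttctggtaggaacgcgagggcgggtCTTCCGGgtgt
Psmd13 (chr7:140882377-140882406, plus strand): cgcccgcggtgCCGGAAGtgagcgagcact
Psme3 (chr11:101316085-101316134, plus strand): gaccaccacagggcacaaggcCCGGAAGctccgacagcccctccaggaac
These matches describe letters in the reference sequence and no binding was measured.

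Levels are normalized values on a scale close to log2, and a difference of 1 is about a doubling for bright probes. Values near the lower end, 6.95, are compressed, and 75.2% of all probes had a mean under 7.5. Of the members 31 had a mean of at least 7.5, and 11 lay under it (Psma1, Psma3, Psma6, Psma8, Psmb11, Psmc6, Psmd2, Psmd3, Psmd5, Psmd6 and Psmd9). Differences between diets were tested with limma over all 45281 probes, and p-values were adjusted over all probes. The 3 comparisons share mice, so they are not independent of each other.

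Some mice stood apart in other cell types. Markers of erythroid cells (18 of 20 listed genes measured, 4 of them, Gata1, Epb42, Rhd and Tmod1, under 7.5) deviated from their 12-mouse mean by 0.85, 1.49 and 0.77 in HFD-ED mice 2, 3 and 4 but by -0.55 in HFD-ED mouse 1. The range was -0.70 to 0.21 in control mice and -0.74 to 0.34 in HFD-CO mice. Proliferation markers (12 of 14 measured) deviated by 0.36, 0.92 and 0.39 in HFD-ED mice 2 to 4 and by -0.092 in mouse 1. Their range was -0.51 to 0.033 in control mice and -0.43 to 0.16 in HFD-CO mice. Neutrophil markers (8 of 8) deviated by 0.87, 2.13 and 0.59 in HFD-ED mice 2 to 4 and by -0.30 in mouse 1. Their range was -0.77 to 0.41 in control mice and -0.99 to -0.33 in HFD-CO mice. Pancreatic acinar markers (11 of 12) deviated by 4.73 in HFD-CO mouse 4 and by 1.22 in HFD-CO mouse 1. Markers of spleen were present in every mouse, with mean levels of 9.13 to 9.60 for B cells and 9.95 to 10.3 for red pulp macrophages. In RNA of a whole organ, fewer cells of a type and less RNA per cell cannot be told apart.

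No member passed an adjusted p of 0.05 in limma in any comparison, and the same threshold was passed by 0.00221% of all probes (1 probe) between the high-fat diets and by 0% when either was set against control. In HFD-ED compared with control, 31 of 42 members had a higher mean, against 45.9% of all genes. An unadjusted p under 0.05 was reached by 9 members (8 higher and 1 lower), which is 21.4% of them, beside 13.2% of all genes (5.69% higher and 7.55% lower) and 25.1% of genes with a mean of at least 7.5 (10.3% higher and 14.8% lower). The median difference of the members was 0.050 log2 units, against -0.0036 for all genes and -0.032 for those with a mean of at least 7.5. Every HFD-ED mouse lay above every control mouse for 4 members (Psma7, Psmb3, Psmd1 and Psme3ip1) and below for 0, where all genes gave 1.99% and 3.49%.

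HFD-ED compared with HFD-CO gave a similar count, with 30 of 42 members higher beside 47% of all genes. Unadjusted p-values under 0.05 were found for 8 members, 5 higher and 3 lower, or 19.0% of them, beside 11.9% of all genes (6.07% higher and 5.82% lower) and 21.6% of those with a mean of at least 7.5 (10.9% higher and 10.7% lower). Every HFD-ED mouse lay above every HFD-CO mouse for 4 members (Psma7, Psmd1, Psmd11 and Psme3ip1), and below for 0, beside 1.93% and 2.61% of all genes. HFD-CO compared with control split evenly, with 21 of 42 higher beside 47.8% of all genes, and 1 member, Psmb2, higher at an unadjusted p under 0.05. That is 2.38% of the members, beside 5% of all genes (2.12% higher and 2.88% lower). The median difference there was -0.00043, and 0 members had diets without overlap, beside 1.46% of all genes with every HFD-CO mouse above and 1.85% with every HFD-CO mouse below.

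Single mice moved these counts. Without HFD-ED mouse 3, which had the highest erythroid and neutrophil marker levels, 25 of 42 members were higher in HFD-ED than in control and the median difference was 0.028. Without HFD-ED mouse 1 the count was again 31, and the median was 0.10. Against HFD-CO, 27 members were higher without HFD-ED mouse 3 and 33 without HFD-ED mouse 1. There were 26 without HFD-CO mouse 4, the mouse with the highest pancreatic markers, and 31 without HFD-CO mouse 1, the next highest. The unadjusted count for HFD-ED against control was 5 without control mouse 1, where the share over all genes was 9.34%. The count against HFD-CO was 4 without HFD-CO mouse 2 (8.74% of all genes) and 5 without HFD-ED mouse 4 (10.3%). It was 12 without HFD-ED mouse 1 (15.9%). For these mice the share over all genes moved the same way, but not for every mouse. Beside a main count of 8 and share of 11.9%, leaving out HFD-CO mouse 1 gave 8 higher and 2 lower members, with a share of 10.2%. Leaving out HFD-CO mouse 3 gave 7 higher and 0 lower, with a share of 12.6%.

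**Figure D1:**
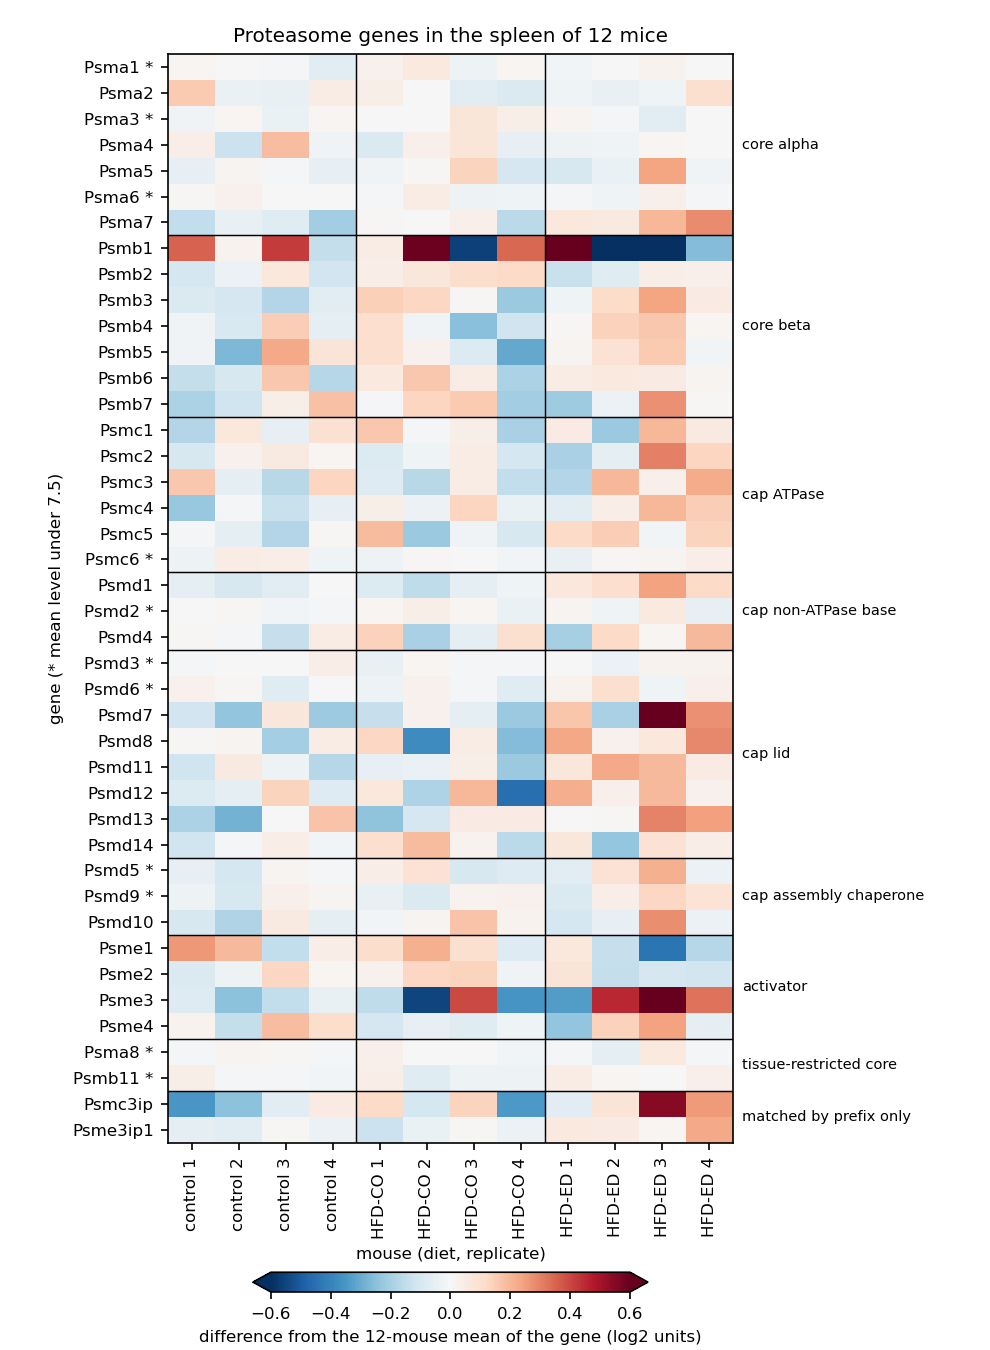
Deviation of each of the 42 genes (rows, grouped by role) from its own 12-mouse mean in log2 units, for 12 mice (columns, 4 per diet); colours end at 0.6 either way and an asterisk marks a mean level under 7.5. Psmb1 and Psme3 vary most between mice, and in the columns of HFD-ED mice 3 and 4 most cap genes are red.

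The core and the cap differed in their counts, though the difference between these lists was not tested. Of 17 cap subunits 15 had a higher mean in HFD-ED than in control, with a median difference of 0.055, and 15 were higher than in HFD-CO, with a median of 0.088. Of the 13 cap subunits with a mean of at least 7.5, 13 were higher than in control (median 0.15) and 12 higher than in HFD-CO (median 0.16), where 41% and 42.8% of all such genes were higher, and 45.2% for HFD-CO against control. Of the 11 core subunits with a mean of at least 7.5, 8 were higher than in control (median 0.042) and 7 higher than in HFD-CO (median 0.023). Of all 14 core subunits 9 were higher than in control (median 0.025) and 8 higher than in HFD-CO (median 0.0081). In HFD-CO compared with control 8 of 14 core and 8 of 17 cap subunits were higher, with medians of 0.030 and -0.0033.

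Averaged over the 17 cap genes, control mice 1 to 4 deviated from the 12-mouse mean by -0.060, -0.035, -0.042 and -0.0010, HFD-CO mice by 0.0027, -0.071, 0.023 and -0.11, and HFD-ED mice by 0.020, 0.014, 0.15 and 0.12. All HFD-ED mice lay above all control mice, while HFD-CO mouse 3 lay above HFD-ED mice 1 and 2. HFD-ED mice 3 and 4 were highest, with 15 and 16 of 17 cap genes above their 12-mouse mean. For the 14 core genes the averages were -0.015, -0.060, 0.063 and -0.042 in control mice, 0.031, 0.087, -0.029 and -0.069 in HFD-CO mice and 0.031, -0.030, 0.020 and 0.014 in HFD-ED mice, and the diets overlapped. With HFD-ED mice 1, 2, 3 and 4 left out in turn, 14, 16, 11 and 13 of 17 cap genes were higher than in control. The cap medians were then 0.13, 0.12, 0.067 and 0.040, beside 15 genes and 0.055 with all mice. The core median against HFD-CO turned to -0.010 without HFD-ED mouse 3 and to -0.017 without HFD-CO mouse 4. HFD-ED mouse 1, the lowest HFD-ED mouse for erythroid, proliferation and neutrophil markers, deviated by 0.020 in the cap genes. For all 3 marker lists that mouse lay inside the control range. Megakaryocyte markers (7 of 8 measured, Itgb3 under 7.5) were higher in every HFD-ED mouse than in all other mice, at 0.021, 0.39, 0.58 and 0.35 in HFD-ED mice, -0.15 to -0.017 in control mice and -0.32 to -0.19 in HFD-CO mice. NK cell markers (7 of 8 measured, Ncr1, Klrb1c and Klrk1 under 7.5) lay at -0.21 to -0.016 in HFD-ED mice, below the 0.032 to 0.17 of control mice, and at -0.054 to 0.094 in HFD-CO mice. The part of these cell types in the cap difference was not tested.

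**Figure D2:**
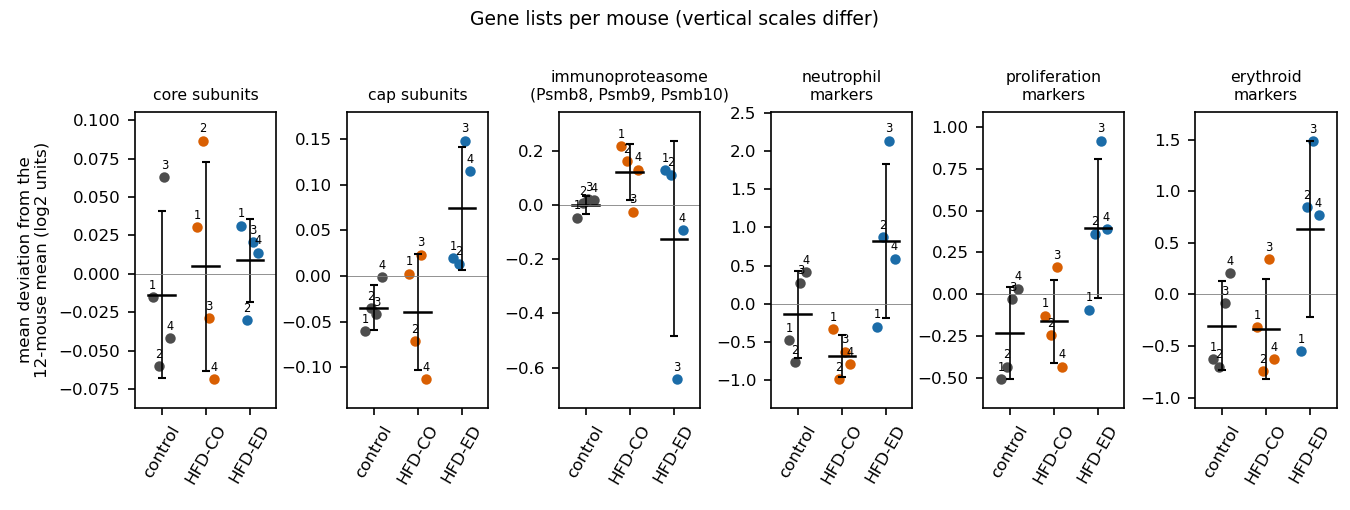
Mean deviation from the 12-mouse mean (log2 units, vertical scales differ) per mouse for core subunits, cap subunits, immunoproteasome genes and 3 marker lists, by diet; points are mice numbered by replicate, lines the diet mean and bars the SD (n = 4). Cap subunits lie between 0.014 and 0.15 in HFD-ED mice and between -0.060 and -0.0010 in control mice, and HFD-ED mouse 3 is lowest for the immunoproteasome at -0.64 and highest for the 3 marker lists.

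For scale, cytosolic ribosomal protein genes (62 measured) were higher in HFD-ED than in control for 24 genes, with a median difference of -0.011. Respiratory chain genes (83 measured) were higher for 61, with a median of 0.079. That is 38.7% and 73.5% of these lists, beside 73.8% of the members, whose median of 0.050 lay between the medians of both.

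Among core alpha subunits, which form the outer rings and the gate of the core, Psma7 had the smallest p in both HFD-ED comparisons. The Psma7 probe read 10.71, 10.81, 10.78 and 10.64 in control mice, 10.86, 10.85, 10.88 and 10.69 in HFD-CO mice and 10.92, 10.91, 11.05 and 11.14 in HFD-ED mice, each in the order of replicates 1 to 4. The HFD-ED mice lay above all others, and HFD-CO mouse 4 lay with the control mice. Its mean was 11.003 ± 0.11 in HFD-ED and 10.74 ± 0.075 in control (SD, n = 4), a difference of 0.27 ± 0.061 (SE), and limma gave an adjusted p of 0.252. Against HFD-CO the difference was 0.18 ± 0.061 (SE) (limma, adjusted p = 0.464). The second Psma7 probe was also higher, by 0.25 against control and by 0.095 against HFD-CO. The other 6 alpha subunits differed by -0.029 to 0.042 from control, and Psma1, Psma3 and Psma6 lay near the lower end of the scale, at means of 7.06 to 7.07. Psma1 had the third smallest p among members for HFD-CO against control, at a difference of 0.034 ± 0.022 (SE). Psma1 levels were 7.07, 7.06, 7.05 and 6.996 in control mice 1 to 4, 7.09, 7.12, 7.03 and 7.07 in HFD-CO mice and 7.04, 7.06, 7.08 and 7.06 in HFD-ED mice. That difference was within the spread of the mice.

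The proteolytic beta subunits are Psmb5, with chymotrypsin-like activity, Psmb6, with caspase-like activity, and Psmb7, with trypsin-like activity. In control mice Psmb5 lay at 8.47, 8.23, 8.72 and 8.58, in HFD-CO mice at 8.60, 8.52, 8.41 and 8.19 and in HFD-ED mice at 8.51, 8.58, 8.65 and 8.48. The 3 diets overlapped, with control mouse 2 and HFD-CO mouse 4 lowest. Psmb6 levels were 10.66, 10.71, 10.97 and 10.63 in control mice 1 to 4, 10.86, 10.96, 10.85 and 10.61 in HFD-CO mice and 10.85, 10.86, 10.85 and 10.82 in HFD-ED mice. Its HFD-ED mice were nearly equal, inside the control range. Psmb7 levels were 10.50, 10.58, 10.73 and 10.87 in control mice 1 to 4, 10.69, 10.82, 10.85 and 10.49 in HFD-CO mice and 10.48, 10.66, 10.97 and 10.70 in HFD-ED mice. Here too each diet covered much the same range. Against control, HFD-ED differed by 0.058 ± 0.11 (SE) for Psmb5, 0.10 ± 0.080 (SE) for Psmb6 and 0.032 ± 0.12 (SE) for Psmb7, with adjusted p-values in limma of 0.917, 0.727 and 0.962. Against HFD-CO the differences were 0.13 ± 0.11 (SE), 0.023 ± 0.080 (SE) and -0.011 ± 0.12 (SE), and those of HFD-CO against control -0.070 ± 0.11 (SE), 0.080 ± 0.080 (SE) and 0.043 ± 0.12 (SE). Several signs turned when 1 mouse was left out. Another bright probe gave a larger value for Psmb6 (0.25 against control, SE 0.057), and the other 3 Psmb7 probes gave 0.020 (SE 0.15), 0.13 (SE 0.096) and 0.25 (SE 0.093). Of these genes Psmb5 and Psmb6 carry the antioxidant element core shown above. For Psmb7 no promoter window was at hand, so it was not searched.

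Of the beta subunits without proteolytic sites, Psmb3 had the smallest p for HFD-ED against control. The Psmb3 probe read 11.33, 11.31, 11.24 and 11.35 in control mice, 11.56, 11.54, 11.42 and 11.19 in HFD-CO mice and 11.39, 11.53, 11.65 and 11.47 in HFD-ED mice, each in the order of replicates 1 to 4. HFD-ED mice lay just above the control mice. The HFD-CO mice spanned the control range, and HFD-ED mouse 3 lay above all of them. The Psmb3 mean was 11.51 ± 0.11 in HFD-ED and 11.31 ± 0.049 in control (SD, n = 4), a difference of 0.20 ± 0.078 (SE), and limma gave an adjusted p of 0.426. Psmb2 differed most clearly between the high-fat diets, and its probes disagreed. Psmb2 levels were 11.54, 11.60, 11.71 and 11.52 in control mice 1 to 4, 11.68, 11.71, 11.74 and 11.75 in HFD-CO mice and 11.51, 11.57, 11.68 and 11.67 in HFD-ED mice. Its mean was 11.61 ± 0.084 in HFD-ED and 11.72 ± 0.035 in HFD-CO (SD, n = 4), a difference of -0.11 ± 0.047 (SE), and limma gave an adjusted p of 0.503. HFD-CO was also higher than control by 0.13 ± 0.047 (SE), at an unadjusted p of 0.0199 in limma that was lost on adjustment. A second Psmb2 probe, at a mean of 10.6, was higher in HFD-ED than in HFD-CO by 0.15 (SE 0.062), so no direction can be given for the gene. Psmb1 was the member with the widest spread. In control mice Psmb1 lay at 9.56, 9.22, 9.62 and 9.06, in HFD-CO mice at 9.25, 9.79, 8.64 and 9.55 and in HFD-ED mice at 10.05, 8.58, 8.16 and 8.94. The pooled SD within diets was 0.57, against a median of 0.13 over the 31 members with a mean of at least 7.5 and 0.13 over all such genes. HFD-ED mouse 1 was the highest of the 12 and HFD-ED mouse 3 the lowest, and the difference of HFD-ED from control was -0.43 ± 0.37 (SE). Psmb4 was higher in HFD-ED than in HFD-CO by 0.15 ± 0.075 (SE), at an unadjusted p of 0.0666.

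**Figure D3:**
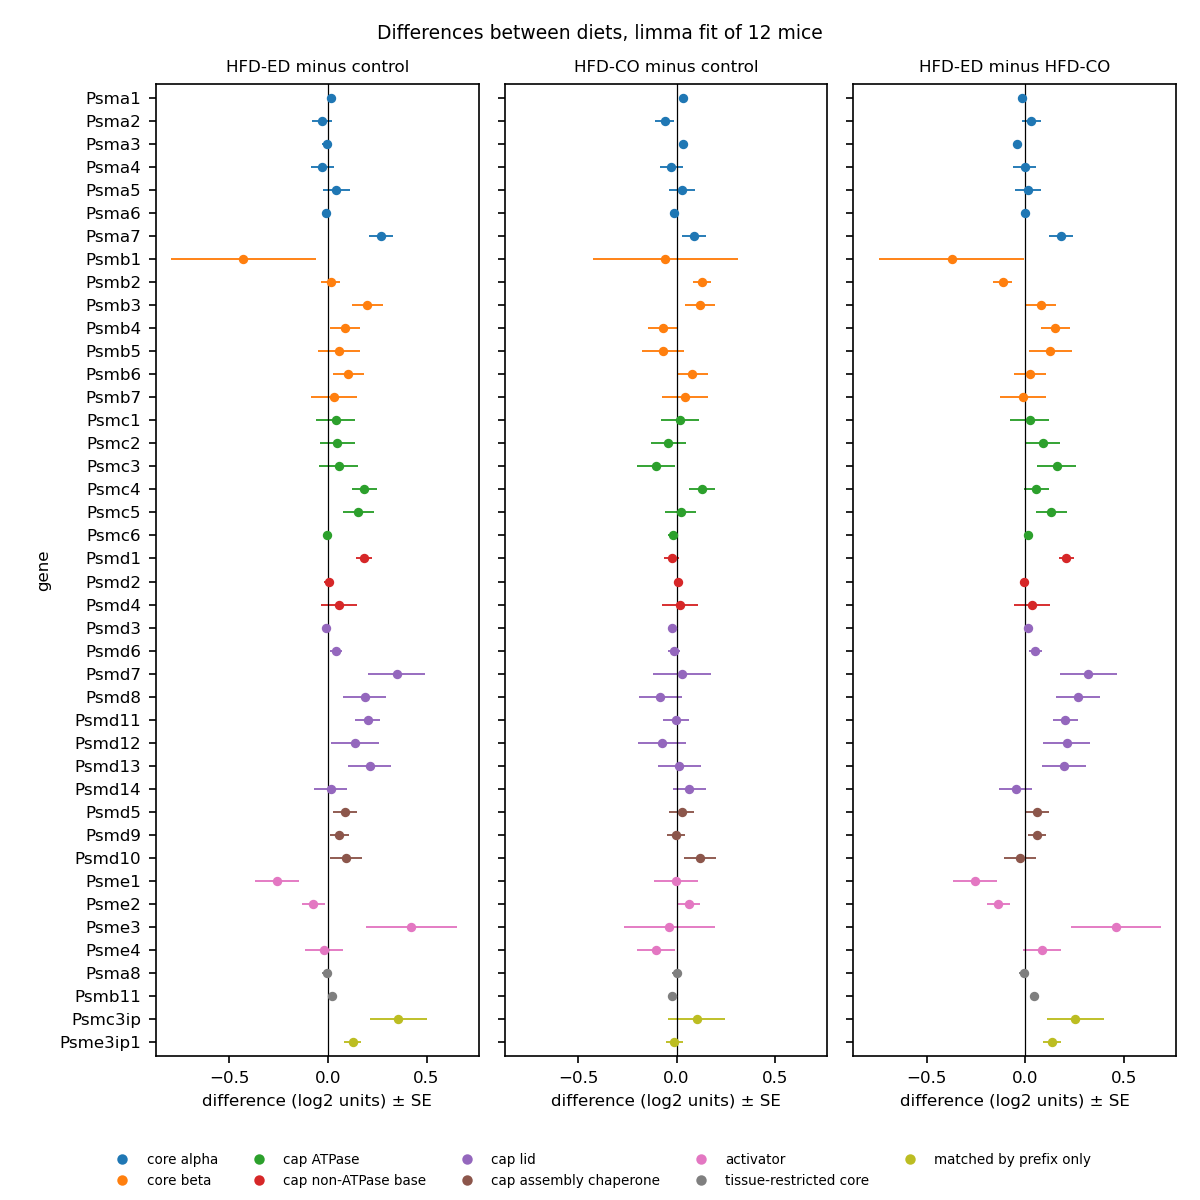
Difference between diets in log2 units (points) with its SE from limma (bars) for each of the 42 genes, in 3 panels for the 3 comparisons, coloured by role. The 13 cap subunits with a mean of at least 7.5 lie to the right of 0 in the panel of HFD-ED minus control, from 0.015 to 0.35, and 12 of them in that of HFD-ED minus HFD-CO, Psmd14 excepted, and they scatter around 0 in the panel of HFD-CO minus control.

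The ATPases Psmc1 to Psmc6 form the ring of the cap that unfolds substrates. HFD-ED was higher than control for 5 of 6 and higher than HFD-CO for 6 of 6, and 1 of them, Psmc4, had an unadjusted p under 0.05 against control, or 16.7% beside 13.2% of all genes and 25.1% of those with a mean of at least 7.5. Psmc4 levels were 10.15, 10.36, 10.24 and 10.33 in control mice 1 to 4, 10.41, 10.34, 10.50 and 10.33 in HFD-CO mice and 10.31, 10.41, 10.57 and 10.52 in HFD-ED mice. HFD-ED mouse 1 lay inside the control range. The Psmc4 mean was 10.45 ± 0.12 in HFD-ED and 10.27 ± 0.095 in control (SD, n = 4), a difference of 0.19 ± 0.065 (SE), and limma gave an adjusted p of 0.391. The HFD-CO mean was above that of control by 0.13 ± 0.065 (SE), at an unadjusted p of 0.0729 in limma. HFD-CO mice 2 and 4 lay inside the control range, and HFD-ED differed from HFD-CO by 0.057 ± 0.065 (SE). Psmc5 had the smallest p of the ATPases against HFD-CO. Psmc5 levels were 10.16, 10.10, 9.98 and 10.17 in control mice 1 to 4, 10.35, 9.94, 10.14 and 10.07 in HFD-CO mice and 10.28, 10.31, 10.15 and 10.29 in HFD-ED mice. The HFD-CO mice covered the HFD-ED range. Its mean was 10.26 ± 0.075 in HFD-ED and 10.12 ± 0.17 in HFD-CO (SD, n = 4), a difference of 0.13 ± 0.078 (SE), and limma gave an adjusted p of 0.65.

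Of the cap's non-ATPase base subunits, Psmd1, a large scaffold protein, gave the most even difference of any member. The Psmd1 probe read 11.32, 11.27, 11.31 and 11.37 in control mice, 11.29, 11.22, 11.31 and 11.35 in HFD-CO mice and 11.43, 11.47, 11.61 and 11.48 in HFD-ED mice, each in the order of replicates 1 to 4. HFD-ED mice lay above every mouse of both other diets, and the lowest of them, mouse 1, was also the lowest HFD-ED mouse for erythroid markers. The Psmd1 mean was 11.50 ± 0.078 in HFD-ED and 11.32 ± 0.042 in control (SD, n = 4), a difference of 0.18 ± 0.040 (SE), and limma gave an adjusted p of 0.252. Against HFD-CO the difference was 0.21 ± 0.040 (SE) (limma, adjusted p = 0.33). HFD-CO differed from control by -0.025 ± 0.040 (SE). All 3 Psmd1 probes were higher in HFD-ED than in HFD-CO, by 0.12 to 0.29, and all 3 were higher than in control, by 0.031 to 0.22. With each mouse left out in turn, the difference from control ran from 0.15 to 0.21 and that from HFD-CO from 0.17 to 0.23, with adjusted p-values in limma of 0.0623 to 0.508 and of 0.0638 to 0.522. Psmd4, a receptor for ubiquitin chains, was higher by 0.055 ± 0.091 (SE), within the spread of the mice. Psmd2 differed by 0.0038 ± 0.023 (SE) on a dim probe, while its dimmer probe differed by 0.10 (SE 0.022).

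The lid, which removes ubiquitin chains before degradation, had 7 of 8 subunits higher in HFD-ED than in control (median 0.16) and 7 of 8 higher than in HFD-CO (median 0.20), with 2 at an unadjusted p under 0.05 in each. These 2 of 8 are 25%, and none of them was lower. In either direction 13.2% and 11.9% of all genes reached it, and 25.1% and 21.6% of genes with a mean of at least 7.5. Higher genes alone were 5.69% and 6.07% of all genes, and 10.3% and 10.9% of those with a mean of at least 7.5. Psmd11, which ties the lid to the core, had the smallest p of the lid in both. Psmd11 levels were 7.99, 8.16, 8.08 and 7.94 in control mice 1 to 4, 8.06, 8.07, 8.14 and 7.88 in HFD-CO mice and 8.18, 8.33, 8.30 and 8.16 in HFD-ED mice. Control mouse 2 reached HFD-ED mouse 4, and HFD-CO mice lay below all of them. Its mean was 8.24 ± 0.088 in HFD-ED and 8.04 ± 0.099 in control (SD, n = 4), a difference of 0.20 ± 0.065 (SE), and limma gave an adjusted p of 0.36. Against HFD-CO it was 0.20 ± 0.065 (SE) (limma, adjusted p = 0.452). Psmd7, the partner of the deubiquitinating subunit, had the largest difference in the lid. In control mice Psmd7 lay at 9.74, 9.62, 9.92 and 9.63, in HFD-CO mice at 9.72, 9.88, 9.80 and 9.63 and in HFD-ED mice at 10.02, 9.66, 10.50 and 10.13. HFD-ED mouse 3 was highest, whereas HFD-ED mouse 2 lay with the control mice. The Psmd7 mean was 10.08 ± 0.35 in HFD-ED and 9.73 ± 0.14 in control (SD, n = 4), a difference of 0.35 ± 0.15 (SE), and limma gave an adjusted p of 0.452. Psmd8 was higher in HFD-ED than in HFD-CO by 0.27 ± 0.11 (SE), Psmd12 by 0.21 ± 0.12 (SE) and Psmd13 by 0.20 ± 0.11 (SE). The exception among bright lid genes was Psmd14, the deubiquitinating subunit itself, at 0.015 ± 0.084 (SE) against control and -0.049 ± 0.084 (SE) against HFD-CO, although its second probe gave 0.14 and 0.10. Psmd12 had a second probe at a mean of 7.61 that was lower in HFD-ED than in HFD-CO, by -0.12.

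The assembly chaperones of the cap, Psmd5, Psmd9 and Psmd10, were all higher in HFD-ED than in control, by 0.058 to 0.092, and none had an unadjusted p under 0.05. Other Psmd10 probes, at means of 8.10 and 9.13, gave -0.042 and -0.0024 against control, and all 3 Psmd10 probes were lower in HFD-ED than in HFD-CO, by -0.025 to -0.066. Psmd5 levels were 7.27, 7.21, 7.34 and 7.31 in control mice 1 to 4, 7.36, 7.41, 7.22 and 7.24 in HFD-CO mice and 7.25, 7.40, 7.53 and 7.28 in HFD-ED mice. HFD-ED mice 2 and 3 were above the control mice and the other two were not. Psmd9 levels were 7.31, 7.24, 7.37 and 7.35 in control mice 1 to 4, 7.29, 7.25, 7.36 and 7.36 in HFD-CO mice and 7.25, 7.37, 7.46 and 7.42 in HFD-ED mice. In both genes, which lie under 7.5, the differences were small beside the spread, with 0.087 ± 0.062 (SE) for Psmd5 against control and 0.060 ± 0.047 (SE) for Psmd9 against HFD-CO (0.699 and 0.758 as adjusted p in limma).

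**Figure D4:**
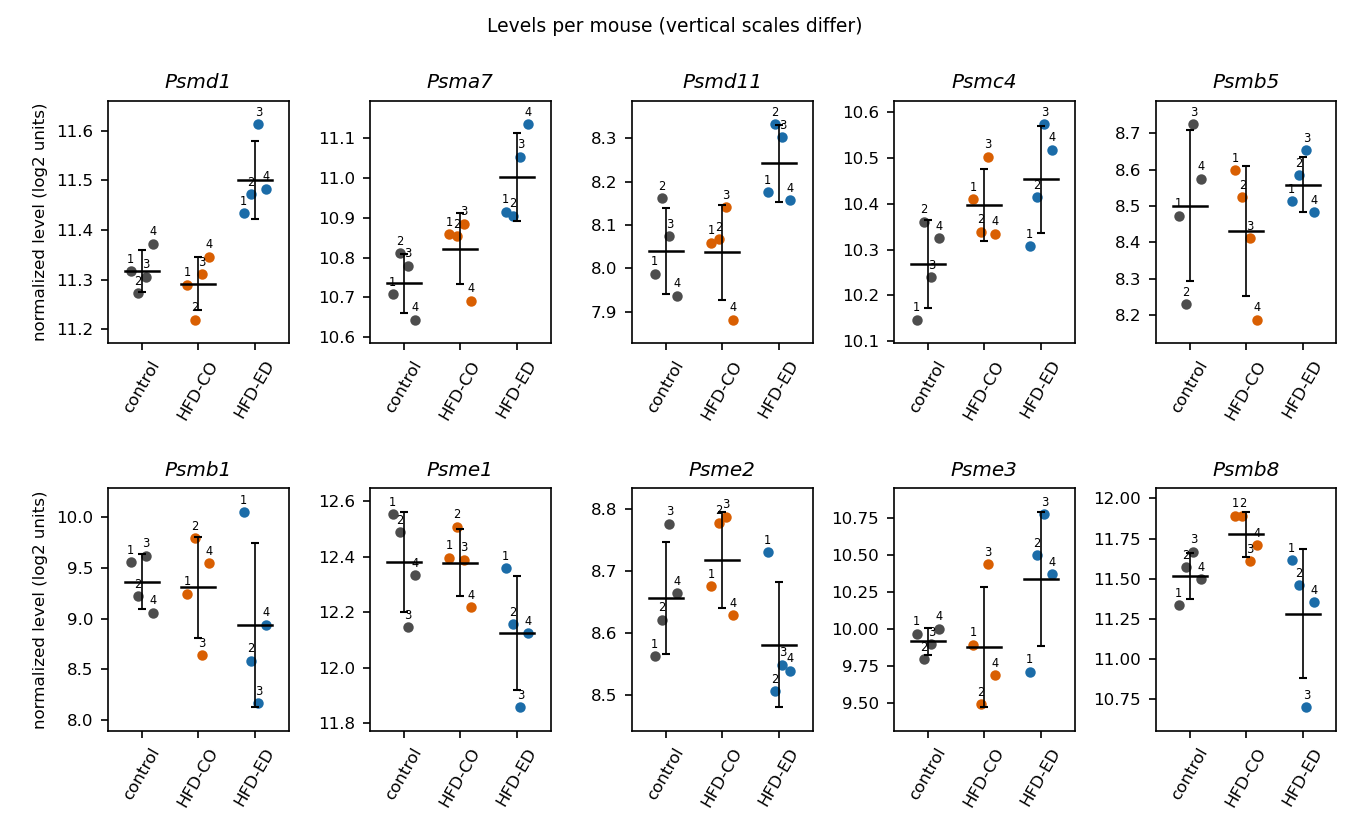
Normalized level (log2 units, vertical scales differ) per mouse of 9 proteasome genes and of the immunoproteasome gene Psmb8, by diet; points are mice numbered by replicate, lines the diet mean and bars the SD (n = 4). HFD-ED mice lie above all other mice for Psmd1 and Psma7, and HFD-ED mouse 3 is lowest for Psme1, Psmb1 and Psmb8 and highest for Psme3.

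The activators went different ways. Psme1 and Psme2 form the interferon-inducible PA28 ring, and Psme3 forms the nuclear ring of the same family. The Psme1 probe read 12.55, 12.49, 12.15 and 12.33 in control mice, 12.40, 12.51, 12.39 and 12.22 in HFD-CO mice and 12.36, 12.16, 11.86 and 12.12 in HFD-ED mice, each in the order of replicates 1 to 4. HFD-ED mouse 3 was lowest, and HFD-ED mice 1 and 2 lay inside the control range. Its mean was 12.12 ± 0.21 in HFD-ED and 12.38 ± 0.18 in control (SD, n = 4), a difference of -0.26 ± 0.11 (SE), and limma gave an adjusted p of 0.472. The second Psme1 probe was lower too, by -0.36 against control and -0.26 against HFD-CO. Psme2 levels were 8.56, 8.62, 8.78 and 8.66 in control mice 1 to 4, 8.68, 8.78, 8.79 and 8.63 in HFD-CO mice and 8.73, 8.51, 8.55 and 8.54 in HFD-ED mice. Here 3 of 4 HFD-ED mice lay below all mice of both other diets, and mouse 1 did not. The Psme2 mean was 8.58 ± 0.10 in HFD-ED and 8.72 ± 0.078 in HFD-CO (SD, n = 4), a difference of -0.14 ± 0.059 (SE), and limma gave an adjusted p of 0.524. Psme3 ran the other way, with the widest spread after Psmb1. In control mice Psme3 lay at 9.97, 9.80, 9.90 and 10.001, in HFD-CO mice at 9.89, 9.49, 10.44 and 9.69 and in HFD-ED mice at 9.71, 10.50, 10.78 and 10.37. HFD-ED mice 2, 3 and 4 were above all control mice and mouse 1 below them, and mouse 1 was also the lowest HFD-ED mouse for the erythroid, proliferation and neutrophil markers. Its mean was 10.34 ± 0.45 in HFD-ED and 9.92 ± 0.090 in control (SD, n = 4), a difference of 0.42 ± 0.23 (SE), and limma gave an adjusted p of 0.574. The part of those cell types in the Psme3 values was not tested. Psme4, an activator of the nucleus, differed by -0.021 ± 0.096 (SE).

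The immunoproteasome genes replace the constitutive proteolytic subunits in immune cells and were left out of the members. Psmb8 levels were 11.33, 11.57, 11.67 and 11.50 in control mice 1 to 4, 11.89, 11.89, 11.61 and 11.71 in HFD-CO mice and 11.62, 11.46, 10.70 and 11.36 in HFD-ED mice. HFD-ED mouse 3 was lowest by a wide margin. The Psmb8 mean was 11.28 ± 0.40 in HFD-ED and 11.78 ± 0.14 in HFD-CO (SD, n = 4), a difference of -0.49 ± 0.17 (SE), and limma gave an adjusted p of 0.468. Without that mouse the difference was -0.30. Against control Psmb8 in HFD-ED differed by -0.24 ± 0.17 (SE) (limma, adjusted p = 0.699), and HFD-CO was higher than control by 0.26 ± 0.17 (SE). Psmb9 gave -0.16 ± 0.18 (SE) against control and -0.097 ± 0.18 (SE) against HFD-CO. Psmb9 levels were 11.58, 11.53, 11.43 and 11.49 in control mice 1 to 4, 11.48, 11.50, 11.44 and 11.37 in HFD-CO mice and 11.72, 11.63, 10.70 and 11.35 in HFD-ED mice. Both of its signs turned without HFD-ED mouse 3, to 0.058 and 0.12. Psmb10 differed by 0.022 ± 0.12 (SE) and -0.15 ± 0.12 (SE). The Psmb10 probe read 10.89, 10.86, 10.91 and 11.01 in control mice, 11.23, 11.04, 10.82 and 11.25 in HFD-CO mice and 10.998, 11.19, 10.61 and 10.96 in HFD-ED mice, each in the order of replicates 1 to 4. HFD-ED mouse 3 was the lowest mouse in all 3 genes, as it was in Psme1. Mean levels of the 6 measured B cell markers (Pax5 under 7.5) ran from 9.13 to 9.41 in HFD-ED mice. They ran from 9.43 to 9.60 in control mice and from 9.45 to 9.60 in HFD-CO mice. HFD-ED mouse 3 was also the lowest mouse for T cell, plasma cell and NK cell markers, at -0.32, -0.28 and -0.21. Each of these lists had 7 genes measured, 3 of them under 7.5. The same mouse was highest for erythroid, proliferation, neutrophil and megakaryocyte markers. The part of these cell types in the immunoproteasome values was not tested.

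Psma8 and Psmb11, core subunits known from testis and from thymic epithelium, lay near the lower end of the scale in every mouse, at 7.13 to 7.25 and 7.07 to 7.18. Both matched by prefix only, Psmc3ip, a partner in meiotic recombination, and Psme3ip1, a protein that binds Psme3, were higher in HFD-ED than in control, by 0.36 ± 0.15 (SE) and 0.13 ± 0.045 (SE). Adjusted p-values in limma were 0.443 and 0.4. A second Psme3ip1 probe of similar brightness differed by -0.062 from control. Without these 4 genes, 28 of 38 members were higher in HFD-ED than in control and 27 of 38 higher than in HFD-CO. In each comparison 7 had an unadjusted p under 0.05, or 18.4%. That stands beside 13.2% and 11.9% of all genes, and 25.1% and 21.6% of genes with a mean of at least 7.5.

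Over the 13 members with more than 1 probe at a mean of at least 7.5, such probes lay on the same side of 0 for 11 in HFD-ED against control, for 10 in HFD-CO against control and for 7 in HFD-ED against HFD-CO.

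Of 30 further genes of the pathway, 0 passed an adjusted p of 0.05 in limma in any comparison. In HFD-ED compared with control 15 of 30 were higher (50%, beside 45.9% of all genes), and 2 higher and 3 lower genes had an unadjusted p under 0.05. That is 16.7%, beside 13.2% of all genes and 25.1% of genes with a mean of at least 7.5. Per group, the gene with the smallest p was followed. Psmg3, a chaperone of core assembly, was higher by 0.23 ± 0.093 (SE). Psmg3 levels were 8.20, 8.02, 8.44 and 8.41 in control mice 1 to 4, 8.36, 8.30, 8.29 and 8.26 in HFD-CO mice and 8.37, 8.42, 8.71 and 8.50 in HFD-ED mice. Mafg, a small Maf protein that pairs with Nfe2l1 and Nfe2l2 at antioxidant elements, was higher by 0.44 ± 0.18 (SE). In control mice Mafg lay at 8.92, 9.17, 9.19 and 9.02, in HFD-CO mice at 9.15, 8.86, 9.24 and 9.24 and in HFD-ED mice at 9.08, 9.39, 10.09 and 9.49. Its HFD-ED mouse 3 stood above all other mice. Ubqln1, a shuttle that carries ubiquitinated proteins to the proteasome, was lower by -0.35 ± 0.14 (SE). Ubqln1 levels were 10.91, 10.81, 11.10 and 10.34 in control mice 1 to 4, 10.44, 10.67, 10.80 and 10.43 in HFD-CO mice and 10.49, 10.53, 10.36 and 10.37 in HFD-ED mice. The HFD-ED levels lay at the lower end of a wide control range. Ufd1, a cofactor of the p97 unfoldase, was lower by -0.11 ± 0.032 (SE) (limma, adjusted p = 0.312), at means close to 7.5. Ufd1 levels were 7.58, 7.49, 7.56 and 7.598 in control mice 1 to 4, 7.55, 7.46, 7.55 and 7.53 in HFD-CO mice and 7.44, 7.43, 7.39 and 7.51 in HFD-ED mice. Sem1, a small lid subunit outside the name pattern, differed by -0.12 ± 0.060 (SE), and Uba6, a ubiquitin-activating enzyme, by 0.073 ± 0.090 (SE). The Sem1 probe read 12.14, 11.92, 12.02 and 12.03 in control mice, 12.08, 11.94, 12.04 and 12.03 in HFD-CO mice and 11.97, 12.001, 11.74 and 11.92 in HFD-ED mice, each in the order of replicates 1 to 4. Uba6 levels were 8.64, 8.66, 8.63 and 8.54 in control mice 1 to 4, 8.42, 8.44, 8.47 and 8.62 in HFD-CO mice and 8.76, 8.87, 8.38 and 8.75 in HFD-ED mice. In neither gene did the diets separate. Nfe2l1 itself, singled out after its values were seen, was lower in HFD-ED by -0.18 ± 0.075 (SE) and Nfe2l2 differed by -0.026 ± 0.071 (SE).

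Against HFD-CO, 19 of the 30 were higher in HFD-ED (63.3%, beside 47% of all genes), and 6 had an unadjusted p under 0.05. That is 20%, beside 11.9% of all genes and 21.6% of genes with a mean of at least 7.5. Of the higher ones, 4 had an unadjusted p under 0.05 and were picked for mention after their values were seen. They were Uchl5, a deubiquitinase of the cap (0.33 ± 0.13 (SE)), Uba6 (0.20 ± 0.090 (SE)), the shuttle Rad23b (0.18 ± 0.063 (SE)) and Vcp, the p97 unfoldase (0.15 ± 0.062 (SE)). Psmb8 and Ufd1 were the 2 lower ones. HFD-CO compared with control gave 12 of 30 higher (40%, beside 47.8% of all genes). An unadjusted p under 0.05 was reached by 0 of the 30, beside 5% of all genes. Another 10 listed genes were not analysed here.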

How the data were processed

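Spleen RNA of 12 mice was hybridized to Illumina MouseWG-6 v2.0 arrays. Bead intensities were read out in GenomeStudio, and the authors deposited values on a log2-like scale after a variance-stabilizing transformation and quantile normalization (lumiExpresso, lumi 2.18.0 per the labels). These log2 values were used as deposited for all 45281 probes. Gene symbols came from the platform annotation, and 34885 probes have 1 symbol, 18 several and 10378 none. The number of arrays limits the precision. Detection p-values were left aside.

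All mice entered 1 fit in limma 3.58.1 in R 4.3.3 (lmFit and eBayes, two-sided), and p-values were adjusted within each comparison over all probes (Benjamini-Hochberg). The thresholds were adjusted p-values of 0.05 and of 0.001, the latter as in the methods of the study, and 0 probes passed the latter in this fit of the deposited values. The fit was tested on simulated arrays. The members and the lists were chosen with earlier results of these data known. Values are given in every mouse for the proteolytic subunits, for the gene of each role with the smallest p in either HFD-ED comparison and for the 3 members with the smallest p in HFD-CO against control, besides the immunoproteasome genes and, of each other pathway list, the gene with the smallest p in HFD-ED against control. Values in every mouse of Psmb1, Psmd7 and Psme3 were added for their spread or size. Psme3ip1 was classed as matched by prefix only after the files were read. Lists were described by counts and medians, with no test.

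Alternatives were the replicate number as a block, an intensity trend, array weights, only the diets compared, no dim probes, 1 probe per gene, other normalizations, the mean of all probes of a gene, members without tissue-restricted and prefix-only genes, and each mouse left out in turn. The mice were treated as unpaired. Of 12 pairs of equal replicate number 4 correlated above 0.1, after the mean of each diet was subtracted from every probe. Pairs of unequal number were not counted, so this cannot exclude a pairing. Each array held the RNA of a separate mouse, and within a diet the arrays correlated at 0.971 to 0.995 (Pearson's r over probes).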

Additional observations from a re-analysis of the deposited data

Results flagged for a closer look

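Of 81 groups of 4 mice examined for a value far from the others, 1 stood out. HFD-CO replicate 4 had a Psma7 level of 10.69, and its 3 companions on the diet ranged from 10.85 to 10.88. Chance alone flags about 1 in 20 such groups. The same mouse had the highest pancreatic acinar markers, and their part in its Psma7 level was not tested.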

How the results depend on the processing

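Counts of members at an adjusted p of 0.05 in limma stayed at 0 in the 3 comparisons under every alternative run. Counts at an unadjusted p under 0.05 moved more. For HFD-ED against control the main count of 9 became 5 with an intensity trend (12.7% of all genes, beside 13.2%), and ran from 5 to 13 with each mouse left out in turn, where the share over all genes was 9.34% and 17.4%. For HFD-CO against control the count of 1 (5% of all genes) became 0 with the trend (4.44%) and 0 without dim probes (4.12% of the genes kept). It was 0 with the mean of all probes of a gene (4.66%) and 2 with only the diets compared (6.39%). With a mouse left out it ran from 0, without control mouse 1 (4.15%) or 4 (5.1%), to 3 without HFD-CO mouse 4 (5.68%). For HFD-ED against HFD-CO the count of 8 became 2 with the trend (11.2% of all genes, beside 11.9%) and 2 with the mean of all probes (11.4%), and ran from 4 to 12 with a mouse left out (8.74% and 15.9% of all genes). With the replicate number as a block, the counts were 10, 2 and 11 in the same order. Whether that number pairs the mice is not established. For 3 of 12 mice a mouse of equal number was the closest in another diet, by correlation after the diet means were subtracted. Without dim probes the cap median was 0.15 against control and 0.16 against HFD-CO, since 4 dim cap genes are not in it. With a mouse left out, the median of all members against control ran from 0.028 to 0.10 and the cap median from 0.040 to 0.13. The number of higher cap subunits in HFD-CO against control ran from 5 to 9 and that of higher core subunits in HFD-ED against HFD-CO from 5 to 10. In settings that keep all mice, 3 differences of single genes turned sign. Psmb7 was at 0.0080 against HFD-CO with cyclic loess, Psmb2 at 0.014 against HFD-CO and Psmb10 at -0.048 against control with the mean of all probes. With a mouse left out, the range for Psmb5 was -0.033 to 0.13 (HFD-ED against control) and -0.16 to 0.011 (HFD-CO against control), and for Psmb6 -0.046 to 0.070 (HFD-ED against HFD-CO). Psmb7 ran from -0.057 to 0.11 for HFD-ED and from -0.013 to 0.12 for HFD-CO, both against control, and from -0.10 to 0.064 between the high-fat diets. Psmb10 ran from -0.062 to 0.13 and Psmb9 from -0.28 to 0.058 against control, and Psmb9 from -0.22 to 0.12 against HFD-CO. The causes were not tested. Signal close to the lower end limits what the 11 dim members can show. Leaving out each mouse for the counts of higher genes was chosen after seeing the data.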
